A study of Mus musculus with 18 samples.

Results

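Ribosome-bound RNA of hippocampal astrocytes was compared between 2 groups of mice that received no kainic acid (KA), the PBS group and the AAV control group. The comparison used the immunoprecipitated (IP) libraries PBS #1 to #3 and AAV control #1 to #3, which are 6 of the 18 libraries of the series, and the genes with more than 1 FPKM (fragments scaled to transcript length and library depth) in all 6. Of 55291 gene symbols, 10667 met this filter and 18042 had 0 in all 6 libraries. All mice were male, wild-type C57BL/6J. At 6 weeks of age they received AAV-DJ GfaABC1D-EGFP-Rpl10a, a virus that expresses an EGFP-tagged ribosomal protein under a short Gfap promoter, in the right CA3. The AAV control group had no second injection, and its RNA was taken 2 weeks after the virus. The PBS group received a second, intrahippocampal injection of PBS after the virus, so that the groups differed in surgery. KA mice had their second injection 2 weeks after the virus, and their RNA was taken 14 days later. The paper added the PBS group to address differences in time course and surgery between KA and AAV control. On the KA schedule, PBS RNA would be taken later after the virus, and from older mice, than AAV control RNA. The interval from the PBS injection to collection was not given in the sources used here. Each sample pooled the right hippocampi of 3 to 4 mice, and the tag marks only the cells in which the virus and its promoter were active.

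In translating ribosome affinity purification, tagged ribosomes are pulled down from a tissue homogenate with their bound transcripts, so that the IP library is weighted towards the tagged cell type while the input library holds RNA of the whole homogenate. Astrocytes take up glutamate and potassium, supply cholesterol and contact blood vessels, and they respond to injury and inflammatory signals by changing these programs. One such response follows interferons, which induce guanylate-binding proteins, immunity-related GTPases, chemokines and the antigen-presenting machinery of MHC class I.

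IP libraries held 9281256 to 12821143 counts in the AAV control group and 10505073 to 16032180 in the PBS group, and no gene took more than 7.14% of a library. AAV control #1 and #2 were sequenced in run 1, AAV control #3 in run 2 and all PBS samples in run 3, so the run and the group cannot be told apart in this comparison. The astrocyte label was checked against 20 markers. All 20 had a higher FPKM in IP than in the input of the same homogenate in each of the 6 samples, with median ratios of 10.2, 9.77 and 6.60 in AAV control #1 to #3 and 9.12, 8.20 and 5.0 in PBS #1 to #3. Neuronal markers had median ratios from 0.180 to 0.301. Oligodendrocyte markers were below 1 in samples #1 and #2 of both groups (0.299 to 0.535), but at 1.28 in AAV control #3 and 1.11 in PBS #3. The 6 tested ependymal markers had median ratios of 1.92, 3.27 and 10.2 in AAV control #1 to #3 and 1.82, 1.07 and 9.71 in PBS #1 to #3. In samples #3 of both groups these were above the medians of the astrocyte markers, so the IP was not enriched for astrocyte transcripts alone. Rpl10a, whose counts can include the tagged transgene, had 244, 239 and 320 FPKM in AAV control IP and 253, 338 and 341 FPKM in PBS IP. The groups overlapped, with p = 0.2 in a two-sided exact permutation test, where 3 against 3 samples cannot go below 0.1.

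The replicates were unevenly spaced. AAV control IP #1 and #2 lay close together, with a correlation of log2 CPM (counts scaled to library size) of 0.989 across genes, which are not independent replicates, and an SD of their log2 differences of 0.295. AAV control IP #3 correlated with them at 0.935 and 0.930, with SDs of 0.705 and 0.718. Its correlations with PBS IP #1 to #3, at 0.960, 0.970 and 0.948, were higher than those with its own group. Among PBS IP libraries the correlations were 0.976, 0.960 and 0.959, the first of which was that of #1 with #2. The biological coefficient of variation was 28.0% in AAV control IP, 9.36% with AAV control IP #1 and #2 alone, 22.8% in PBS IP and 20% in KA IP. On the first principal component, which held 51.5% of the variance of the 6 libraries, AAV control IP #1 and #2 scored −39.6 and −35.4, while AAV control IP #3 scored 25.3 beside the PBS libraries at 3.85, 12.8 and 33.2. The second component (23.4%) put AAV control IP #3 at 29.8 and PBS IP #3 at −31.9, at opposite ends.

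To count the genes behind this, a gene was taken as beyond both others when a library exceeded, or fell below, each of the other libraries of its group by at least 2-fold in log2 CPM. In AAV control IP #3, 566 of 10667 genes (5.31%) lay above both others and 485 (4.55%) below. AAV control IP #1 had 3 above and 27 below, and AAV control IP #2 had 22 above and 14 below. PBS IP #3 was the next most distant among these 6, with 258 above and 23 below, whereas PBS IP #1 and #2 had 4 and 9 above and 78 and 95 below. In the KA group, which shares runs with the AAV control group, KA IP #3 had 274 above and 122 below. The input of AAV control #3 had 472 above and 298 below, while the PBS inputs had at most 43 above and 55 below.

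**Figure D1:**
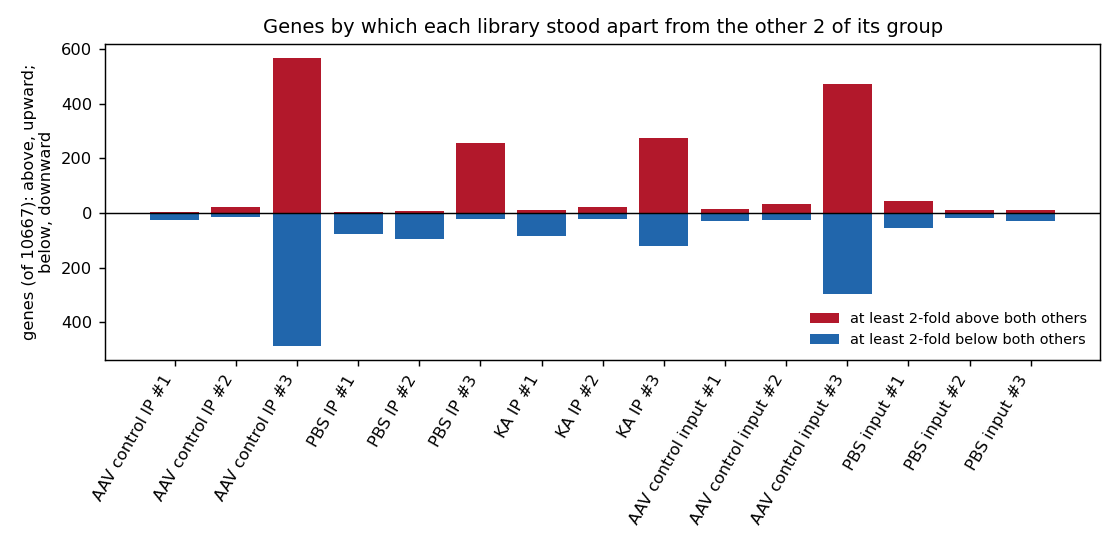
Number of genes, of 10667 with FPKM above 1 in all 6 IP libraries, that lay at least 2-fold above (bars upward) or below (bars downward) both other libraries of the same group, for each IP library and the PBS and AAV control inputs. AAV control IP #3 had 566 above and 485 below, the most of any library shown.

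Gene length and base composition differed between these sets. The genes above both others in AAV control IP #3 had a median exonic length of 2520 bases and a median GC content of 52.8%, the genes below had 5210 bases and 47.6%, and all tested genes had 4090 bases and 49.3%. When the protein-coding genes were split by length into 4 groups of equal size, the median log2 difference of AAV control IP #3 from the mean of #1 and #2 was 0.20 in the shortest group and −0.22 in the longest. In KA IP #3 against KA IP #1 and #2 these medians were 0.08 and −0.10, and between AAV control IP #2 and #1 they were −0.09 and 0.06. In PBS IP #3 against PBS IP #1 and #2, all of run 3, they were −0.21 and 0.31, in the opposite direction to AAV control IP #3. The part of length and GC content in the results on single genes was not tested.

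The genes furthest above both others in AAV control IP #3 were led by interferon-stimulated and MHC class I genes. H2-T23 (chromosome 17, 36029773 to 36032855, GRCm38), which encodes the non-classical class I molecule Qa-1, had 3.99, 2.14 and 205 FPKM in AAV control IP #1 to #3 and 4.58, 4.85 and 11.9 FPKM in PBS IP. Igtp (chromosome 11, 58199556 to 58207591), an interferon-inducible GTPase, had 3.52, 3.05 and 61.9 FPKM against 1.79, 2.99 and 2.83 FPKM. B2m (chromosome 2, 122147686 to 122153083), the light chain of class I molecules, had 183, 153 and 2910 FPKM against 279, 254 and 304 FPKM. In all 3 genes a single library was high, at 67.0, 18.8 and 17.4 times the mean of its group's other libraries, while AAV control IP #1 and #2 lay below the PBS libraries for H2-T23 and B2m and slightly above them for Igtp. H2-T23 lies within the antisense gene A930015D03Rik and Igtp overlaps Irgm2 on the same strand, and whether counting used the strand was not given in the sources used here, so reads of these pairs may be shared.

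The same pattern held for the heavy chain H2-D1 with 46.0, 38.5 and 876 FPKM in AAV control IP and 42.0, 44.6 and 92.5 FPKM in PBS IP. Cxcl10, a chemokine that attracts activated T cells, had 1.82, 2.46 and 37.9 FPKM against 2.52, 1.94 and 3.81 FPKM. Psmb8, a subunit of the immunoproteasome, had 2.14, 2.60 and 35.6 FPKM against 3.47, 2.93 and 3.63 FPKM. AAV control IP #3 was the highest of the 6 libraries for each of these 3 genes. In the other 5 libraries the groups overlapped for H2-D1 and Cxcl10, while for Psmb8 the PBS libraries were slightly above AAV control IP #1 and #2. Isg15, an interferon-induced ubiquitin-like protein, had 5.52, 7.14 and 56.0 FPKM against 3.02, 2.99 and 6.50 FPKM.

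The promoters of these genes were searched for GAAANNGAAA on both strands (TTTCNNTTTC on the other), the letters of an interferon-stimulated response element, within 250 bases before to 50 after the RefSeq start. Such a match is a description of the sequence and not a binding site. It was found in 9 of the 15 interferon-stimulated genes with a promoter entry among those tested (60%), in 3 of 9 MHC class I genes (33.3%), in 280 of 7982 tested genes (3.51%) and in 1079 of all 27025 genes (3.99%). Of all genes above both others in AAV control IP #3, 27 of 402 (6.72%) held it, as did 10 of 333 (3.00%) of those below. Among the 6 interferon or MHC genes in the 10 furthest above, H2-T23, Igtp, B2m and Cxcl10 held a match, while H2-D1 and Psmb8 did not. Upstream stretches of Igtp, B2m and Cxcl10 are given from RefSeq (GRCm38.p6), 5′ to 3′ on the gene's strand, since these genes carry the pattern in different families, with the match in capitals.
Igtp, chr11:58199452-58199555, plus strand: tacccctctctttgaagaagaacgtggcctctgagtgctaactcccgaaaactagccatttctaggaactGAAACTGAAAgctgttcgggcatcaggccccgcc
B2m, chr2:122147478-122147627, plus strand: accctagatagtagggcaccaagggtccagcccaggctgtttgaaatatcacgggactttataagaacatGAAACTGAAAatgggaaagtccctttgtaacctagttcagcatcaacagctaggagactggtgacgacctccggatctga
Cxcl10, chr5:92349023-92349139, minus strand: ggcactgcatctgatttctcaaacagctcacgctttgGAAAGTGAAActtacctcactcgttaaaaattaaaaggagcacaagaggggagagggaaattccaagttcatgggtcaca
The matches start 34, 139 and 213 bases before the start site of Igtp, B2m and Cxcl10.

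Over the whole lists, 17 of 29 interferon-stimulated genes passed the FPKM filter, and 13 of the 17 were at least 2-fold above both others in AAV control IP #3, with none below. Their median log2 difference from the mean of AAV control IP #1 and #2 was 2.91, against −0.01 over all tested genes. Of 14 MHC class I genes 10 passed the filter, and 7 were above and 0 below, with a median of 3.25. Among all tested genes 5.31% were above both others and 4.55% below. AAV control IP #3 was the highest of the 6 libraries in 15 of the 17 tested interferon-stimulated and in 10 of the 10 tested MHC class I genes, while it was the highest in 1423 of all tested genes (13.3%). The summed level of the interferon-stimulated list was 257, 221 and 1850 FPKM in AAV control IP #1 to #3 and 206, 221 and 347 FPKM in PBS IP #1 to #3. For the MHC class I list it was 348, 299 and 4500 FPKM and then 413, 386 and 505 FPKM. B2m made up much of the second sum, and in both lists the 5 other IP libraries spanned less than a 2-fold range.

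Libraries outside the comparison give a scale for these levels. In KA IP #1 to #3 the interferon-stimulated list summed to 1700, 1770 and 2240 FPKM, a range that included the level of AAV control IP #3, while the MHC class I list summed to 1150, 1080 and 1240 FPKM, below it. KA IP #3, of the same run as AAV control IP #3, did not stand apart from its group in these lists, with median log2 differences of −0.06 and −0.15 from KA IP #1 and #2. In the input of AAV control #3, from the same homogenate, they were 1.32 and 2.01 relative to inputs #1 and #2. These input medians covered only the 6 interferon-stimulated and 7 MHC class I genes that passed the FPKM filter in the inputs, against 17 and 10 in IP. The input sums of the MHC class I list were 151, 137 and 530 FPKM in AAV control and 193, 177 and 201 FPKM in PBS, so the same homogenate was the highest, by less than in IP. The ratio of IP to input over the list had a median of 9.33 in AAV control #3 and of 1.95 to 2.60 in the other 5 samples. Among markers of other immune cells, 0 of 13 T cell genes passed the filter, and their sums lay between 0.894 and 2.13 FPKM in all 6 IP libraries. In the inputs their sum was 1.36, 1.93 and 5.96 FPKM in AAV control and 2.12, 3.10 and 2.31 FPKM in PBS. Microglial markers summed to 29.9, 25.9 and 48.4 FPKM in AAV control IP and 37.8, 32.8 and 63.4 FPKM in PBS IP. Their input sums were 250, 205 and 503 FPKM and then 285, 335 and 329 FPKM, so the homogenate of AAV control #3 was the highest input in both lists, as it was for MHC class I, and the part of these cells in the interferon and MHC results was not tested. In such bulk samples, more cells of a type and more RNA per cell cannot be told apart.

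**Figure D2:**
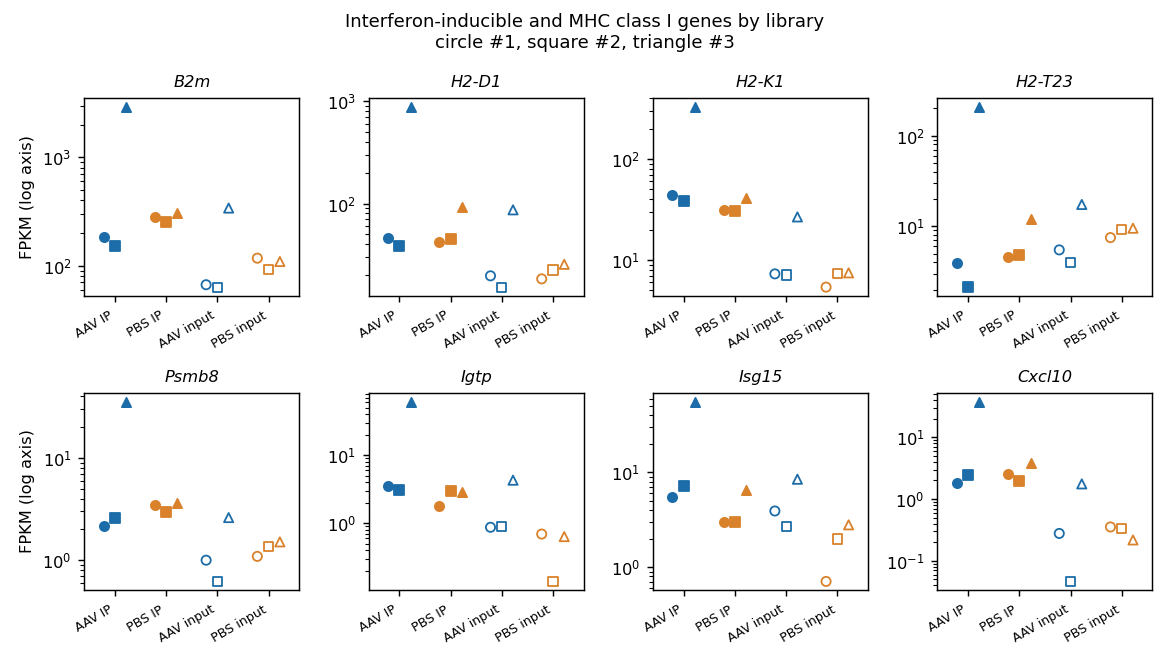
FPKM (log axis) of 8 interferon-stimulated and MHC class I genes in AAV control and PBS, with filled points for IP, open points for input and shapes for samples #1 to #3. AAV control IP #3 lies above the other 5 IP libraries in every gene shown, for example at 205 FPKM for H2-T23 where the others span 2.14 to 11.9 FPKM.

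AAV control IP #3 was also high in genes of myelin and of ciliated cells. All 12 oligodendrocyte markers and all 6 tested ependymal markers were at least 2-fold above AAV control IP #1 and #2 in it, with median log2 differences of 1.91 and 2.63. Of all tested genes 5.31% lay that far above both. Trf, which encodes transferrin, an iron carrier that oligodendrocytes make, had 11.8, 17.5 and 206 FPKM in AAV control IP and 28.3, 19.7 and 62.7 FPKM in PBS IP. Apod, an apolipoprotein of myelinating and reactive glia, had 12.4, 16.4 and 268 FPKM and then 15.0, 10.4 and 44.5 FPKM. Tmem212, a gene of multiciliated ependymal cells, had 14, 17.1 and 177 FPKM and then 18.4, 5.01 and 116 FPKM. In all 3 genes samples #3 were the highest of their group in both groups, and the groups overlapped. PBS IP #3 differed from PBS IP #1 and #2 by a median log2 difference of 0.89 for oligodendrocyte and 2.61 for ependymal markers, whereas KA IP #3 had −0.62 and −0.50. Summed ependymal markers reached 467 FPKM in AAV control IP #3 and 354 FPKM in PBS IP #3, against 26.9 to 81.2 FPKM in the other 4 IP libraries, and the inputs lay between 27.6 and 45.9 FPKM.

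Genes below both others in AAV control IP #3 included regulators of the astrocyte lineage. Of 11 tested BMP and Id genes 5 were at least 2-fold below, as were 4.55% of all tested genes. The median log2 difference of the list was −0.82. Id4, an inhibitor of basic helix-loop-helix transcription factors, had 292, 297 and 97.8 FPKM in AAV control IP and 132, 119 and 105 FPKM in PBS IP. Sox9, a transcription factor that specifies glia, had 84.3, 87.9 and 29.9 FPKM and then 42.6, 33.3 and 28.5 FPKM. For both genes AAV control IP #1 and #2 were higher than the other 4 libraries, and AAV control IP #3 was below all PBS libraries for Id4 and inside their range for Sox9. Both were also lower in KA IP #3 than in KA IP #1 and #2, with log2 differences of −0.745 for Id4 and −1.19 for Sox9. Sample #3 against #1 and #2 gave −0.875 and −1.14 in KA input, and −1.22 and −1.06 in AAV control input. The median of the BMP and Id list in KA IP #3 against KA IP #1 and #2 was −0.327. Of the 20 astrocyte markers, 3 were below both others in AAV control IP #3 and 2 above, against 4.55% and 5.31% of all tested genes. Their median log2 difference was −0.10.

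The comparison of all 6 libraries gave calls that depended on the tool. In edgeR's quasi-likelihood test with Benjamini-Hochberg adjustment, 0 of 10667 genes (0%) were differentially expressed genes (DEGs), defined by adjusted p under 0.05 and a change of at least 2-fold, and the smallest adjusted p was 0.436. At unadjusted p under 0.05 there were 1153 genes (10.8%), 664 of them higher (6.22%) and 489 lower (4.58%) in PBS. The test in limma voom also gave 0 genes, and DESeq2 gave 16, 11 higher and 5 lower. In limma voom with a quality weight per library, which lowered the weight of AAV control IP #3, 498 genes were DEGs, and edgeR without the FPKM filter gave 253. The median absolute log2 fold change was 0.26, and 289 genes (2.71%) differed by at least 2-fold between the group means. For 7158 genes (67.1%) the 95% interval of the fold change lay inside 2-fold in either direction. The median standard error of the log2 fold change was 0.257, so that a typical interval reached 0.57 to each side. For the remaining genes a 2-fold difference was not excluded by the interval.

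The 10 largest fold changes in each direction were taken among genes with an unadjusted p under 0.05 and groups that did not overlap. None of the 10 higher in PBS was annotated as protein-coding. Gm11418 (chromosome 11, 81587361 to 81593478), a transcript antisense to the ion channel gene Asic2, had 5.17, 4.18 and 8.85 FPKM in AAV control IP and 19.7, 19.2 and 19.6 FPKM in PBS IP, a log2 fold change of 1.69 (SE 0.33, adjusted p = 0.436 from edgeR). A930015D03Rik, antisense to H2-T23 and its neighbours, had 1.16, 1.51 and 4.36 FPKM against 8.99, 4.96 and 11.1 FPKM. The mitochondrial transfer RNA mt-Ti had 3.13, 4.55 and 3.39 FPKM against 16.3, 10.2 and 12.4 FPKM. By the way they were chosen, every PBS library was above every AAV control library in these 3 genes. The same held in 521 of all 10667 tested genes. In the inputs of Gm11418 the groups overlapped, with 5.40, 7.19 and 7.11 FPKM in AAV control and 2.07, 9.35 and 9.42 FPKM in PBS.

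In the other direction the largest fold changes were of 2 kinds. For Igtp, with a log2 fold change of −3.23 (SE 1.05), the difference rested on AAV control IP #3, and without it the value was −0.29. Snrnp27 (chromosome 6, 86675151 to 86684522), which encodes a protein of the spliceosomal tri-snRNP, had 54.1, 54.4 and 21.3 FPKM in AAV control IP and 17.6, 13.8 and 15.5 FPKM in PBS IP. Its log2 fold change of −1.40 (SE 0.31, adjusted p = 0.436 from edgeR) moved to −1.70 without AAV control IP #3. Here AAV control IP #1 and #2 were high and AAV control IP #3 lay just above the PBS libraries. Gm14964, antisense to the synaptic gene Nrxn2, followed the second kind with 31.2, 29.2 and 8.63 FPKM against 7.64, 3.92 and 7.77 FPKM.

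The wound-related and structural genes of reactive astrocytes gave a few small differences. Vim (chromosome 2, 13573927 to 13582826), an intermediate filament of reactive astrocytes, had 27.9, 26.9 and 28.9 FPKM in AAV control IP and 15.2, 15.8 and 16.3 FPKM in PBS IP. The replicates of Vim were tight and the groups did not overlap, AAV control IP #3 included, as for 13.4% of all tested genes. In 910 of the 10667 tested genes all PBS libraries lay below all AAV control libraries. The log2 fold change of Vim was −0.79 (SE 0.20, 95% interval −1.23 to −0.35, adjusted p = 0.436 from edgeR). In the KA group, Vim had 354, 328 and 168 FPKM, above both controls. Gfap, the other filament gene, had 622, 566 and 843 FPKM in AAV control IP and 958, 1230 and 655 FPKM in PBS IP, so the groups overlapped (log2 fold change 0.55, SE 0.44). Timp1, an inhibitor of metalloproteinases, had 2.31, 1.88 and 10.5 FPKM against 1.34, 1.58 and 1.72 FPKM, and its log2 fold change of −1.72 was −0.36 without AAV control IP #3. Of 7 tested pan-reactive genes, 4 had an unadjusted p under 0.05, all lower in PBS, where 4.58% of all tested genes were lower at that threshold. Their median log2 fold change was −0.74 over the 7 against 0.03 over all tested genes. All 4 tested A1 reactive genes, which include H2-T23, H2-D1 and Gbp2 and so overlap the interferon and MHC lists, had a negative log2 fold change at that threshold. Without AAV control IP #3 the A1 median turned from −2.59 to 0.57, and the pan-reactive median was −0.36. The pan-reactive list also shares Cxcl10 with the interferon list. None of these genes passed adjustment.

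The programs of resting astrocytes are counted at the unadjusted threshold, which 10.8% of all tested genes passed. Of all tested genes 6.22% were higher and 4.58% lower in PBS at it. Of 20 astrocyte markers 2 had an unadjusted p under 0.05, both lower in PBS, with a median log2 fold change of −0.06. The first of them was Gjb6, the gap junction protein connexin 30, with 138, 114 and 92.6 FPKM in AAV control IP and 67.6, 78.5 and 63.1 FPKM in PBS IP. S100b, a calcium-binding protein, had 974, 1090 and 875 FPKM against 939, 1090 and 689 FPKM, and its log2 fold change was −0.04 (SE 0.34, 95% interval −0.79 to 0.72). Among 12 genes of glutamate and GABA handling, 1 was higher at that threshold, with a median of 0.03. Among 15 genes of potassium and water handling and the endfoot, 1 was lower, with a median of −0.09. Of 21 cholesterol synthesis genes 5 were lower and 0 higher, with a median of −0.28. Hmgcs1, which makes the precursor of mevalonate, had 127, 137 and 49.3 FPKM against 58.3, 51.5 and 45.1 FPKM, and Cyp51, lanosterol demethylase, had 40.6, 41.0 and 21.8 FPKM against 20, 21.7 and 18.8 FPKM. In both of these genes AAV control IP #3 lay with the PBS libraries, and the log2 fold changes were −0.94 (SE 0.35) and −0.70 (SE 0.26), with adjusted p of 0.436 from edgeR.

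Genes that follow handling, stress hormones and time of day were examined because the groups differed in surgery. Their counts are read against the 10.8% of all tested genes past the unadjusted threshold. Of all tested genes 6.22% were higher and 4.58% lower in PBS at that threshold. Of 15 immediate early genes 1 was lower in PBS at unadjusted p under 0.05, Ier2, with 6.37, 7.62 and 3.02 FPKM against 2.17, 2.01 and 4.19 FPKM. Of 10 glucocorticoid-responsive genes 2 were lower. Tsc22d3, which encodes the glucocorticoid-induced leucine zipper, had 50, 46.7 and 25.0 FPKM against 23.5, 20.6 and 24.6 FPKM, a log2 fold change of −0.77 (SE 0.25). Both genes overlapped or nearly met between the groups through AAV control IP #3. Of 17 circadian clock genes 1 was higher, of 14 genes of endoplasmic reticulum stress 1 was lower, and of 103 nuclear genes of the respiratory chain 1 was lower, with a median of 0.00. Cytosolic ribosomal protein genes had 7 of 80 lower and 1 higher, with a median of −0.19. The medians of the clock and stress hormone lists were −0.24 and −0.11.

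**Figure D3:**
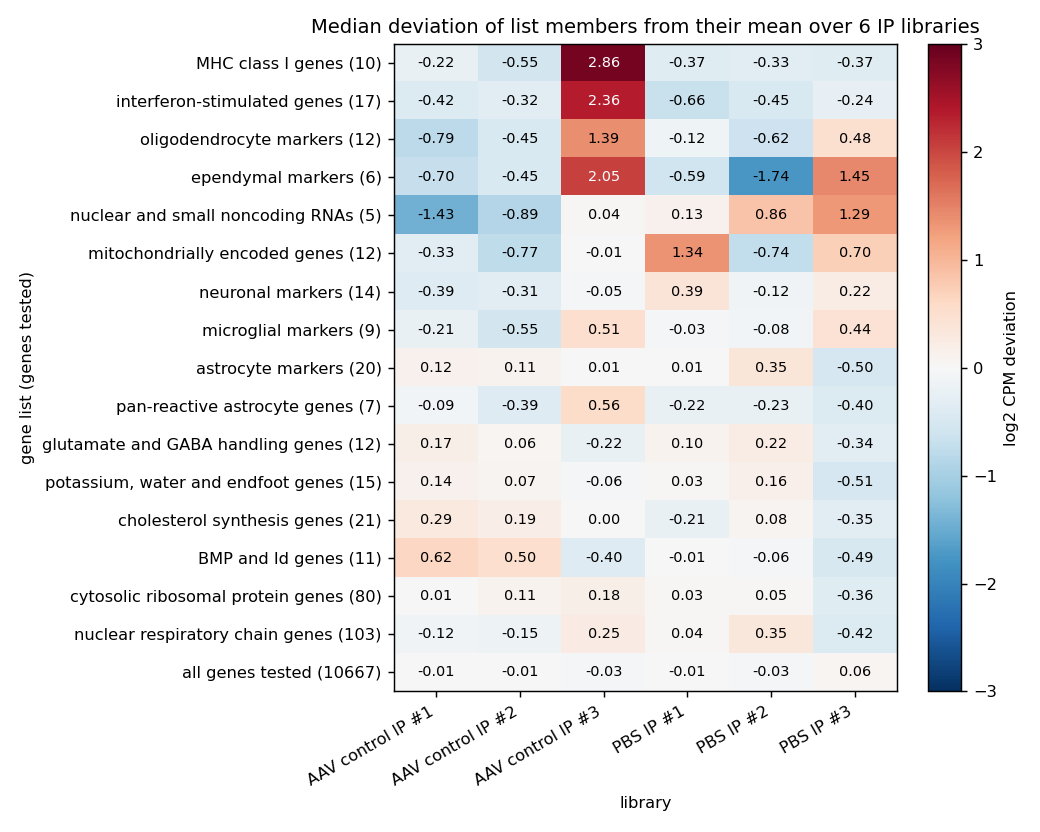
Heat map of gene lists (vertical, number of tested genes in brackets) against the 6 IP libraries (horizontal). Colour and number give the median, over the tested members, of each gene's log2 CPM less its mean over the 6 libraries. In AAV control IP #3 MHC class I genes were at 2.86 and all tested genes at −0.03.

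In the nuclear noncoding, neuronal and mitochondrially encoded lists, every gene with an unadjusted p under 0.05 was higher in PBS, as were 6.22% of all tested genes, and none passed adjustment in edgeR. Of 5 tested nuclear noncoding RNAs 4 were higher at unadjusted p under 0.05, with a median log2 fold change of 1.5. Snhg11 is in both the noncoding and the neuronal list and is counted in each. In KA IP #3 against KA IP #1 and #2, the median log2 difference was 1.15 for the noncoding list. It was 0.46 for the neuronal and −0.75 for the mitochondrial list. Meg3, an imprinted long noncoding RNA that neurons express, had 30.1, 41.9 and 60.6 FPKM in AAV control IP and 82.8, 122 and 189 FPKM in PBS IP (log2 fold change 1.57, SE 0.42). Miat, a nuclear long noncoding RNA, had 3.42, 5.01 and 8.66 FPKM against 9.73, 14.3 and 25.0 FPKM. For both RNAs all PBS libraries were above all AAV control libraries, sample #3 was the highest of each group, and the inputs did not follow, with log2 fold changes of −0.35 and −0.56. Of 14 neuronal markers 6 were higher at that threshold, with a median of 0.43, and 3 had no positive log2 fold change. Camk2a, a kinase of excitatory neurons, had 37.3, 37.9 and 30.5 FPKM against 74.9, 36.2 and 68.2 FPKM. Camk2a overlapped through PBS IP #2. All 12 mitochondrially encoded genes had a positive log2 fold change, 4 of them at unadjusted p under 0.05. The complex I subunit mt-Nd3 had 39.7, 32.2 and 50.9 FPKM against 215, 47.8 and 172 FPKM, with PBS IP #2 inside the AAV control range. The summed level of the mitochondrial list was 14200, 12100 and 17200 FPKM in AAV control IP and 39200, 8080 and 29500 FPKM in PBS IP, where PBS IP #2 was the lowest of the 6. In PBS input it was also higher, at 76400 to 101000 FPKM against 51500 to 69000 FPKM.

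Of 12 genes that the study names, for its KA results or for other reasons, 9 were tested. For 6 of these the 95% interval lay inside 2-fold, as it did for 67.1% of all tested genes. Igfbp2 (chromosome 1, 72824503 to 72852474), a secreted protein that binds insulin-like growth factors, had 103, 92.6 and 55.2 FPKM in AAV control IP and 50.1, 56.7 and 44.0 FPKM in PBS IP, against 1170, 903 and 702 FPKM in KA IP. The controls overlapped through AAV control IP #3, with p = 0.2 in a two-sided exact permutation test, and the 95% interval of the log2 fold change was −1.25 to −0.06. Its neighbour Igfbp5 on the opposite strand, of the same family, had 70.3, 65.2 and 20.3 FPKM against 33.1, 29.2 and 25.8 FPKM. Kcne1l, a potassium channel subunit, had 36.2, 35.1 and 38.5 FPKM against 31.0, 32.1 and 22.7 FPKM (95% interval −0.84 to 0.24). Serpina3n, a protease inhibitor of reactive astrocytes, had 10.1, 8.01 and 39.3 FPKM against 11.7, 9.37 and 14.2 FPKM, and its 95% interval was −1.94 to 0.46, with AAV control IP #3 the highest of the 6. The neurotrophin Bdnf (2.91, 2.91 and 2.57 FPKM against 3.42, 2.01 and 3.37 FPKM) had a log2 fold change of 0.09 (95% interval −0.40 to 0.59). Serpina3a was listed at 0 in all 6 libraries.

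Leaving out AAV control IP #3 changed the number of calls. With AAV control IP #1 and #2 against PBS IP #1 to #3, 527 of the same 10667 genes were DEGs in edgeR, 362 higher (3.39%) and 165 lower (1.55%) in PBS. Leaving out any other library gave 0. The fit then sets libraries of run 1 against libraries of run 3. Srsf9 (chromosome 5, 115327177 to 115333080), a splicing factor, had 124, 118 and 41.9 FPKM in AAV control IP and 38.6, 35.9 and 39.6 FPKM in PBS IP, and its log2 fold change without #3 was −1.58 (adjusted p = 0.00817 from edgeR). Scand1, a SCAN-domain protein, had 119, 127 and 26.5 FPKM against 32.2, 29.1 and 27.5 FPKM. The processed pseudogene Gm8129 had 41.0, 54.0 and 2.93 FPKM against 5.86, 3.29 and 3.13 FPKM. All 3 were high in AAV control IP #1 and #2 and at one level in the other 4 libraries, AAV control IP #3 included. Ubb-ps, a pseudogene of polyubiquitin whose reads its parent may share, went the other way with 27.3, 28.9 and 241 FPKM against 167, 238 and 165 FPKM. Phyhip, a brain protein that binds phytanoyl-CoA hydroxylase, was higher in PBS with 2.59, 2.48 and 5.10 FPKM against 8.6, 6.77 and 9.66 FPKM. The lower DEGs held 29 pseudogenes (17.6%), where all tested genes held 2.98%, and the higher DEGs held 13.3% long noncoding genes, where all tested genes held 5.90%.

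The KA libraries, which were not in this fit, allowed these genes to be examined across runs 1 and 2 within 1 group. In KA IP #3 against the mean of KA IP #1 and #2, 337 of the 362 higher DEGs (93.1%) were higher and 160 of the 165 lower DEGs (97.0%) were lower, with median log2 differences of 0.66 and −0.68. Over all tested genes 50.8% were higher, with a median of 0.01. Between KA IP #2 and #1, both of run 1, the direction matched for 315 of 527 genes (59.8%), with medians of 0.12 and −0.01. The KA inputs, also outside the fit, gave the same picture, with 472 of 527 (89.6%) in the same direction in KA input #3. Scand1 had 89.9, 79.0 and 35.9 FPKM in KA IP #1 to #3, Srsf9 had 86.2, 81.5 and 36.4 FPKM, and Ubb-ps had 85.4, 83.5 and 374 FPKM. For these genes the libraries of run 1 differed from the single library of run 2 in KA as well as in AAV control. Samples #3 may also differ from #1 and #2 in ways other than the run, and these cannot be told apart.

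**Figure D4:**
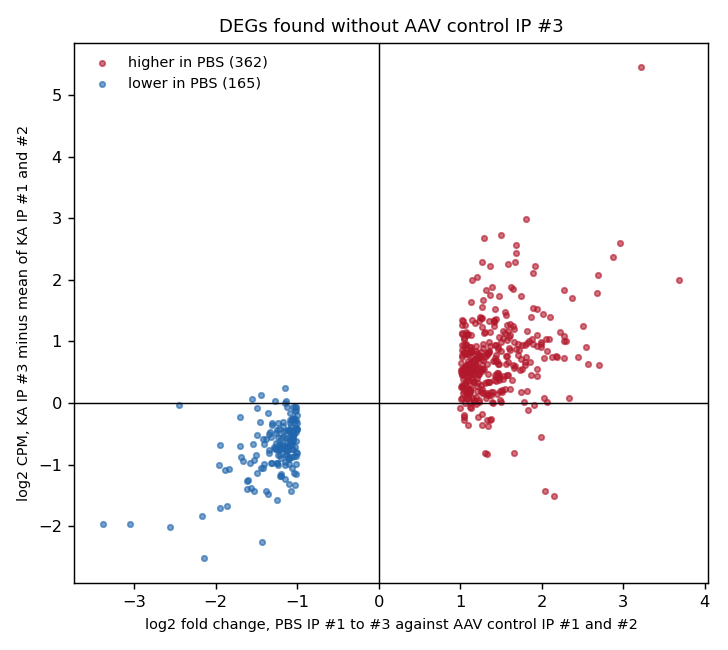
Each point is 1 of the 362 genes higher (red) or 165 lower (blue) in PBS without AAV control IP #3, with that log2 fold change on the horizontal axis and the log2 difference of KA IP #3 from the mean of KA IP #1 and #2 on the vertical axis. Of the red points 337 lie above 0 on the vertical axis, and of the blue points 160 lie below.

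**Figure D5:**
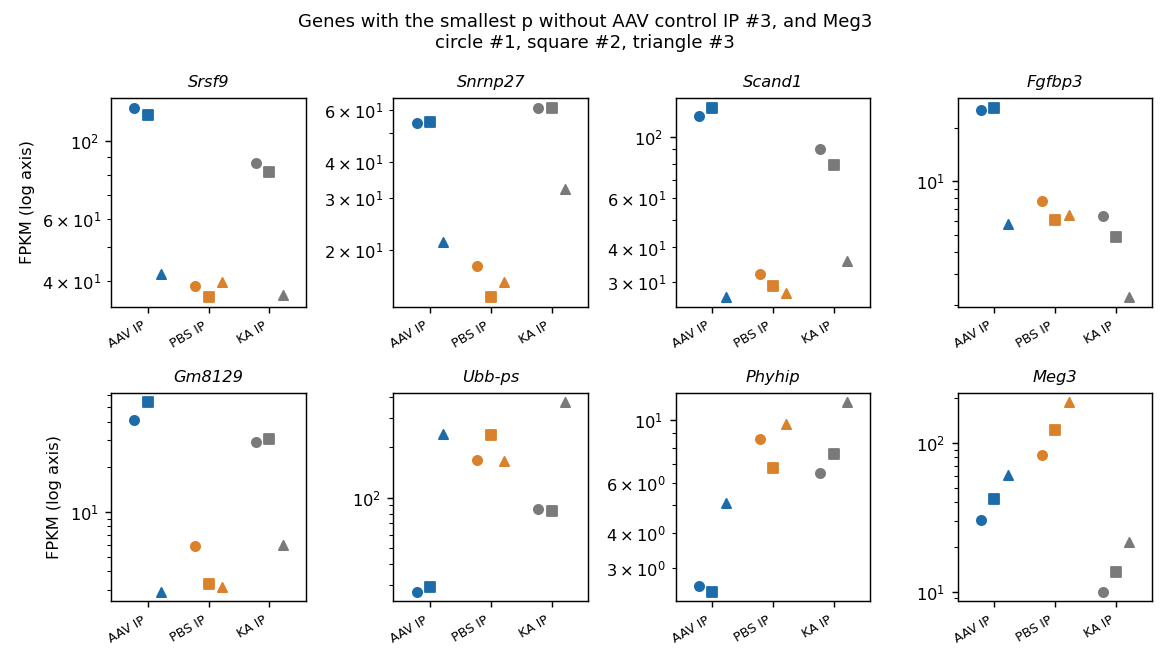
FPKM (log axis) in the AAV control, PBS and KA IP libraries of 7 DEGs with the smallest p without AAV control IP #3 and of Meg3, with shapes for samples #1 to #3. Srsf9 had 118 to 124 FPKM in AAV control IP #1 and #2 and 35.9 to 41.9 FPKM in AAV control IP #3 and the PBS libraries.

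The genes at the edge of AAV control IP #3 were followed in the same way, through libraries that did not choose them. Of the 566 genes above both others, 95 (16.8%) were also at least 2-fold above both others in KA IP #3, against 2.57% of all tested genes, and these were 34.7% of the 274 such genes of KA IP #3. In the input of AAV control #3, which shares its homogenate, 237 (41.9%) were above both others, against 4.42% of all tested genes. Of the 485 below, 40 (8.25%) were below in KA IP #3, against 1.14%, and 106 (21.9%) in the input, against 2.79%. The interferon and MHC class I lists were high in IP and input of AAV control #3. KA IP #3 did not stand apart from KA IP #1 and #2 in them. However, all KA IP libraries were above the PBS IP libraries and AAV control IP #1 and #2 in both sums. IP and input of AAV control #3 also share homogenate and run, so the part of the run in these lists was not tested. Srsf9, Scand1, Gm8129 and Ubb-ps differed in 1 direction in AAV control IP #3, its input and KA IP #3.

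In the input libraries, 0 of 10924 tested genes passed adjustment in edgeR, 901 had an unadjusted p under 0.05 and DESeq2 gave 30. In a joint fit of IP and input with the homogenate as a block, 1 of 9597 genes had a difference between the IP and the input effect. This gene was Mir6236 (chromosome 9, 110281287 to 110281409), annotated as a microRNA gene, whose counts here come from an RNA library and do not measure the mature microRNA. It had 797, 926 and 416 FPKM in AAV control input and 93.1, 128 and 46.4 FPKM in PBS input, so all PBS inputs were below all AAV control inputs. In IP it had 146, 241 and 80.6 FPKM in AAV control and 80.7, 165 and 37.9 FPKM in PBS, so the groups overlapped. The log2 fold changes were −2.93 (SE 0.41) in input and −0.58 (SE 0.53) in IP, and the adjusted p of their difference was 0.0213 in edgeR. The mature form that RefSeq places in this gene (GRCm38.p6, chr9:110281353-110281371, plus strand) is shown to identify the gene, with its seed, bases 2 to 8, in capitals.
mmu-miR-6236: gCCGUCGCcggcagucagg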

How the data were processed

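RNA of pooled right hippocampi was sequenced (NEBNext Ultra II RNA kit) as IP and input. The authors deposited, for each library, gene counts and FPKM values per gene symbol, and the processing notes name STAR, featureCounts, edgeR and mm10 without versions. The strand setting and the treatment of multi-mapping reads were not given in the sources used here. The FPKM values were used as deposited by the authors for levels and for the filter of FPKM above 1 in all compared libraries. The counts as deposited were tested with edgeR 4.0.16 in R 4.3.3 (quasi-likelihood test, TMM, Benjamini-Hochberg), with limma 3.58.1 and DESeq2 1.42.0 as alternatives, after the scripts were tested on simulated data. Log2 CPM used TMM and a prior count of 2. IP libraries held 9281256 to 16032180 counts, and nothing in the labels ties samples to litters, so p-values measure the spread between pooled samples. Gene positions came from GENCODE M21 (GRCm38), which matched 53292 of 55291 symbols (96.4%). The genes named are the 10 largest non-overlapping changes in each direction, the 10 genes furthest beyond both others in AAV control IP #3, the 10 smallest p without that library, the 4 smallest p in each list, and the genes of the study, with full values for those the results turn on. The members and lists were chosen with earlier results of these data known. Alternatives were normalization, filter, tool, replicate block, fits with KA libraries and each library left out.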

Additional observations from a re-analysis of the deposited data

Results flagged for a closer look

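Mir6236 was the gene whose effect differed between IP and input. The difference of its log2 fold changes, IP less input, was 2.25 (SE 0.265, adjusted p = 0.0213 from edgeR, 1 of 9597 genes), and with the homogenate left out as a block no gene passed. In the input alone its log2 fold change was −2.93 with an adjusted p of 0.561, and without AAV control input #3 it was −3.18 with an adjusted p of 1.15e-06.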

How the results depend on the processing

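Counts of adjusted p under 0.05 and of DEGs for PBS against AAV control IP were both 0 with RLE normalization, limma voom, the fit of 9 IP libraries and the replicate block. They were 261 and 253 without the FPKM filter, 16 and 16 in DESeq2, and 2453 and 498 in limma voom with quality weights, which gave AAV control IP #3 a weight of 0.194. Leaving out 1 library gave 0 to 1121 and 0 to 527, the upper values when AAV control IP #3 was dropped. Dropping PBS IP #3 as well, an alternative chosen after seeing the data, gave 1774 and 477, and 398 DEGs were shared with the 527. In input they were 234 and 127 without the filter, 30 and 14 in DESeq2, and 1 and 1 with the replicate block. Leaving out 1 library gave 0 to 4040 and 0 to 350, the upper values without AAV control input #3. For the difference between IP and input, they were 129 and 123 without the filter, 0 and 0 with no replicate block, and 0 (without PBS #2) to 145 and 0 to 129 (without AAV control #3) with 1 homogenate left out. Residuals of same-numbered IP samples correlated at 0.378, −0.225 and 0.177. Each group was centred on its own mean, so these values cannot show whether the numbers pair the samples. Genes beyond both others in AAV control IP #3, 1051 in all, were 374 with FPKM above 5 and 3866 with no filter. Of the log2 fold changes of 43 named genes, 13 values changed sign and 47 passed adjustment where the reported fit did not, 21 of them with no filter, 21 when AAV control IP #3 was dropped and 5 in DESeq2. Over the fits that each lacked 1 library, the lowest and highest values were −3.99 and 1.25 for H2-T23, −3.04 and 0.55 for H2-D1, −2.53 and 0.82 for B2m, −2.96 and 0.43 for Cxcl10, −2.57 and 0.58 for Psmb8, −2.95 and 0.71 for Apod, −1.71 and 1.37 for Trf, −2.56 and 1.54 for Tmem212, −1.13 and 0.45 for Serpina3n, −0.32 and 0.19 for S100b, and −0.067 and 0.21 for Bdnf. For all of these except S100b and Bdnf the positive value was the fit lacking AAV control IP #3. Bdnf was −0.019 without the filter. Except where a library or a filter was itself the change, the cause was not tested.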

Other observations

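Choroid plexus genes differed between the inputs. The list, led by the thyroid hormone carrier Ttr, summed to 3060, 2170 and 32.5 FPKM in AAV control input #1 to #3 and to 36.8, 272 and 316 FPKM in PBS input #1 to #3. In the IP libraries the sums were 84.3, 62.1 and 37.4 FPKM and then 18.7, 21.4 and 40.6 FPKM for the same samples.

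The glucocorticoid-responsive list summed to 4730, 5140 and 12900 FPKM in AAV control IP and 12400, 14200 and 8660 FPKM in PBS IP. The metallothionein Mt1 carried most of it, with 4330, 4710 and 12400 FPKM and then 12000, 13800 and 8390 FPKM, and the list as a whole had a median log2 fold change of −0.11 and a median difference of AAV control IP #3 from #1 and #2 of 0.02. In input the sum was 630, 600 and 2030 FPKM and then 1610, 1460 and 1390 FPKM, so AAV control #1 and #2 were the lowest in both kinds of library. In KA IP the sum was 7320, 7510 and 24700 FPKM, with sample #3 the highest.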
